A study of Oryctolagus cuniculus with 9 samples.

Results

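Rabbit (Oryctolagus cuniculus) vocal folds that had been injured and left untreated were compared with normal folds over all genes of the deposited expression table. The comparison used 6 of the 9 libraries of the series, 3 from untreated injured folds and 3 from normal folds without injury. The remaining 3 libraries, from injured folds treated with the SOT hydrogel, were not compared here but entered the filter, the scaling, the shared estimate of the spread and the fits that left out a library. The design text of the series places the sampling of injured folds at 1 week, and all libraries were made from polyadenylated RNA. The labels give the tissue as vocal fold and the cell type as vocal cord histiocytes, and they give no strain, age or sex. Whether the replicates of a group came from different animals is not said, so a p-value here covers sample-to-sample spread that may be technical alone.

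The vocal fold is a layered organ. A stratified squamous epithelium covers a lamina propria of fibroblasts, collagen, elastin and hyaluronan, which lies on the thyroarytenoid skeletal muscle. Seromucous glands, laryngeal cartilage and nerve lie close by. After injury neutrophils and macrophages enter the fold, fibroblasts are activated and matrix is laid down. Transcription factors set which of these cell programmes run, receptors let the cells read the wound, and metabolic genes supply energy and building blocks.

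Levels are given as the FPKM values the authors deposited, which are scaled per length and per library, always in the order of replicates 1, 2 and 3. Differences are log2 fold changes of untreated against normal folds from edgeR's quasi-likelihood test on the deposited counts, with their standard error (SE) and the p-value adjusted over all 17344 tested genes. A gene is said to have risen or fallen only where its adjusted p was under 0.05 with all 9 libraries and stayed so in 9 further fits, every one without a different library. By this rule 2987 genes, or 17.2% of those tested, had changed: 1820 rose (10.5%) and 1167 fell (6.73%). With all libraries alone the counts were 3074 higher (17.7%) and 2618 lower (15.1%). The balance of directions turned with upper-quartile scaling, which gave 2587 higher and 3193 lower, and with DESeq2, which gave 3555 and 3626. The all-library counts were 2023 higher and 1432 lower without untreated replicate 2, 1929 and 1252 without untreated replicate 3, and 2166 and 1696 without normal replicate 1. In 26.2% of the tested genes all 3 untreated FPKM values lay above all 3 normal values, and in 28.8% they lay below, so groups that do not overlap were common. The median log2 difference of all tested genes was -0.02.

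The normal libraries held 44755718 to 45521838 counts and the untreated libraries 49771566 to 50338111. The first principal component of the 6 libraries held 69.3% of the variance and separated the groups. Spearman correlations were between 0.9736 and 0.9898 within a group and between 0.8743 and 0.9316 across groups. The histiocyte label was checked against markers of tissue and blood cells. Macrophage markers summed to 280, 287 and 302 FPKM in normal folds and to 1320, 2320 and 1980 FPKM in untreated folds, and 10 (10 to 11) of the 14 tested macrophage markers rose. Ranges in parentheses after such counts give the lowest and the highest count over 7 alternative settings at the same threshold. Skeletal muscle markers summed to 15500, 13600 and 16200 FPKM in normal folds, so these libraries were taken as whole tissue.

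Other tissue markers moved with the groups too. Muscle markers were at 5170, 506 and 2230 FPKM in untreated folds, and 10 of the 20 tested were lower with all libraries, but none (0 to 11) in each left-out fit, with a median log2 difference of -2.46. Cartilage markers summed to 815, 1360 and 718 FPKM in normal and to 47.9, 29.4 and 23.5 FPKM in untreated folds, with 10 (6 to 11) of 13 fallen and UCMA at 0 in every untreated library. Schwann cell and nerve markers were at 365, 627 and 322 FPKM against 77.9, 49 and 55.5 FPKM, and 6 (5 to 8) of 13 fell. Seromucous gland markers stood at 18000 and 20300 FPKM in normal replicates 1 and 2 but at 1800 FPKM in normal replicate 3, near the untreated values of 2890, 544 and 1290 FPKM. Sums of squamous epithelial and thyroid follicle markers overlapped between the groups. The adipocyte sum overlapped too, but 3 (1 to 3) of 9 adipocyte markers fell and 1 rose, the median log2 difference was -1.56, and LEP was at 0 in every untreated library. Ciliated cell markers were at 38.9, 26.5 and 36.6 FPKM against 17.9, 16.2 and 15.4 FPKM, with 1 of 10 fallen and SNTN at 0 in every untreated library. T and B cell markers were lower in sum, at 1830, 1580 and 528 FPKM against 425, 197 and 269 FPKM, and none of 14 rose or fell (median log2 difference -0.6). Of 11 endothelial markers 3 (2 to 3) rose. Of 12 fibroblast markers 4 (4 to 4) rose and 2 (2 to 4) fell, with a median log2 difference of -0.08 and sums of 3410, 3980 and 3650 against 8340, 8540 and 8700 FPKM. Neutrophil markers summed to 1130, 952 and 3420 FPKM in normal folds and to 6880, 9440 and 8210 FPKM in untreated folds, and 8 (2 to 10) of 13 rose, with 2 under a replicate block. In bulk tissue, fewer cells of a type and less RNA per cell cannot be told apart.

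**Figure D1:**
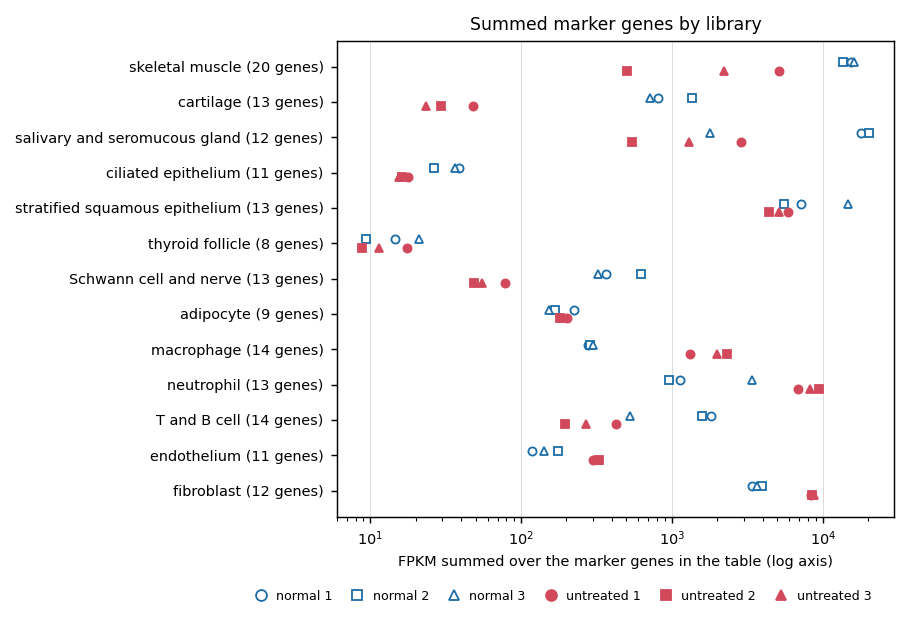
Deposited FPKM summed over the genes of each marker list (log axis), with 1 point per library, open blue for normal and filled red for untreated folds, and shapes for replicates 1 to 3. Muscle, cartilage and nerve sums lie lower and macrophage, neutrophil and fibroblast sums higher in all 3 untreated libraries, and normal replicate 3 lies apart in the gland list at 1800 FPKM.

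Lists of transcription factors, receptors and metabolic genes were then read as counts of risen and fallen members beside the shares over all tested genes. Over the 21 lists, 125 distinct members rose and 84 fell.

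**Figure D2:**
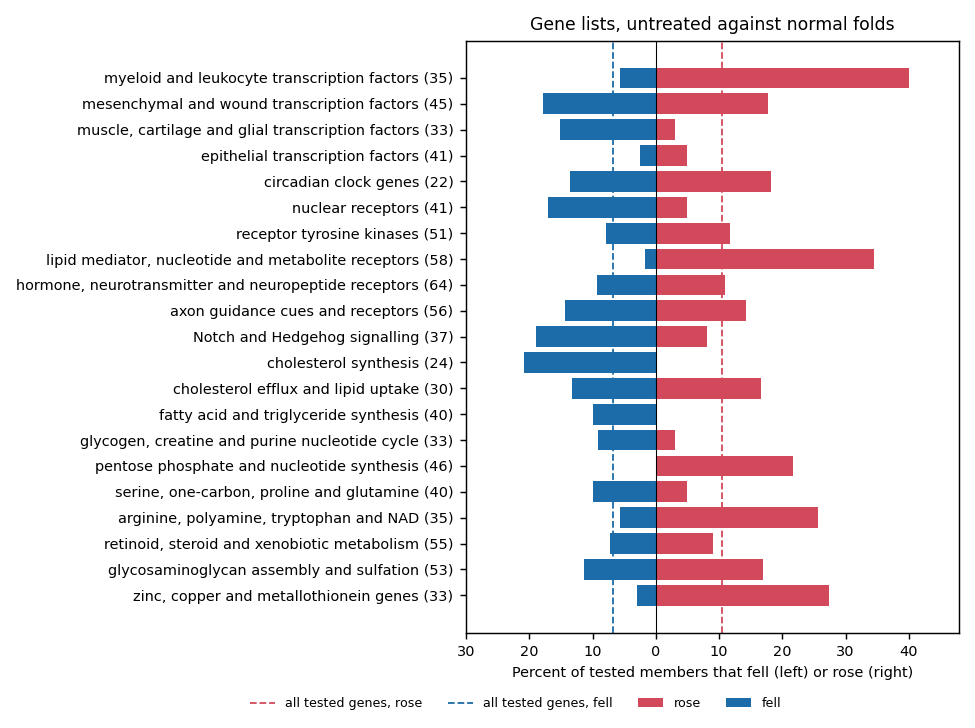
Percent of the tested members of each of 21 gene lists that rose (red, to the right) or fell (blue, to the left) in untreated against normal folds, with the number of tested members in parentheses. Dashed lines give the shares over all 17344 tested genes, 10.5% risen and 6.73% fallen.

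Of the 35 tested transcription factors of myeloid cells and other leukocytes 14 (12 to 16) rose and 2 (1 to 3) fell, and the median log2 difference was 0.46. SPI1 encodes PU.1, which directs the development of macrophages and granulocytes, and lies on chromosome 1 at 186682134 to 186715640 of the build OryCun2.0. It stood at 3.57, 5.24 and 4.33 FPKM in normal folds and at 38.8, 64.7 and 56 FPKM in untreated folds (log2 3.63, SE 0.48, adjusted p = 0.00161). TFEC, a macrophage member of the MITF family, was at 1.33, 1.3 and 1.05 FPKM against 9.1, 13 and 13.5 FPKM (log2 3.3, SE 0.19, adjusted p = 0.000197). Both genes were higher in every untreated library, and untreated replicate 1 was the lowest of the 3. The same held for the macrophage, neutrophil, endothelial and fibroblast sums.

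CEBPE and NFE2 were under 1 FPKM in every normal library. CEBPE, needed for the late maturation of granulocytes and located on chromosome 17 at 43338766 to 43340352, had 0 counts in all 3 normal libraries and 1.39, 1.92 and 1.18 FPKM in untreated folds. Against a floor of 3 deposited counts per normal library it was at least 30.1-fold higher (adjusted p = 0.00756). How the counts were made is not stated, so 3 counts may not be 3 reads. NFE2, a factor of the erythroid, megakaryocyte and granulocyte lines, was at 0.284, 0.776 and 0.344 FPKM in normal folds and at 6.61, 12.3 and 10.8 FPKM in untreated folds (log2 4.42, SE 0.93, adjusted p = 0.00903). BATF, LEF1 and CEBPB rose by 2.62, 2.55 and 2.27 on the log2 scale.

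The fallen members of the list were CEBPA and NFATC1. CEBPA, a factor of myeloid cells and also of fat cells, stood at 29.4, 33.4 and 26.9 FPKM against 13.7, 14.1 and 12.2 FPKM (log2 -1.13, SE 0.19, adjusted p = 0.00357). It thus moved opposite to its relatives CEBPB, CEBPD and CEBPE. NFATC1, the master factor of osteoclasts, was at 13.5, 12.8 and 11.8 FPKM in normal and at 6.35, 6.36 and 6.03 FPKM in untreated folds (log2 -0.99, SE 0.1, adjusted p = 0.000702).

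Factors of mesenchymal cells and wounds split in both directions, with 8 (4 to 14) risen and 8 (7 to 10) fallen of 45. That is 17.8% each way, against 10.5% and 6.73% of all tested genes. SNAI1, a repressor of epithelial adhesion genes, was at 0.427, 2.54 and 1.03 FPKM in normal folds and at 12.7, 14.3 and 14.1 FPKM in untreated folds (log2 3.39, SE 0.72, adjusted p = 0.00921). RUNX1, a factor of blood stem cells that activated mesenchymal cells also use, went from 5.5, 5.35 and 8.93 to 18.5, 19.9 and 21.4 FPKM (log2 1.63, SE 0.21, adjusted p = 0.0014). ZEB2 and MEOX2 rose by 1.25 and 1.06. ZEB2's close relative ZEB1 fell by 0.96 on the log2 scale, from a mean of 13.3 to 6.7 FPKM.

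Among those that fell were factors that pattern connective tissue. FOXF2, a forkhead factor of the mesenchyme beneath epithelia, stood at 15.1, 21.8 and 15.6 FPKM in normal folds and at 5.74, 4.55 and 5.7 FPKM in untreated folds (log2 -1.69, SE 0.18, adjusted p = 0.00073). OSR1, FOXP2 and NFIA fell by 1.42, 1.31 and 1.31, and the related NFIB and NFIX fell by 0.95 and 0.98 on the log2 scale. NFIA was at 11.3, 13.1 and 9.99 FPKM against 5.1, 4.4 and 4 FPKM.

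In the list of muscle, cartilage and glial factors 1 (0 to 1) of 33 rose and 5 (5 to 10) fell. The risen member was ANKRD1, a stretch- and injury-induced cofactor of striated muscle and a target of YAP, at 0.7, 4.69 and 5.3 FPKM in normal folds and 101, 15.9 and 48.9 FPKM in untreated folds (log2 3.99, SE 0.86, adjusted p = 0.00982). Its 3 untreated values followed the same order as the muscle marker sums, highest in replicate 1 and lowest in replicate 2. The gland, squamous, thyroid, nerve, adipocyte and T and B cell sums shared that order. SOX9, the cartilage master factor on chromosome 19 at 55820440 to 55825108, was at 25.2, 42.4 and 24.2 FPKM against 9.46, 10.3 and 9.53 FPKM (log2 -1.61, SE 0.21, adjusted p = 0.0014).

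SOX6, a partner of SOX9 in cartilage that also acts in muscle fibres, fell by 2.09 and PAX9 by 1.51. PPARGC1A, the coactivator of mitochondrial biogenesis, stood at 4.33, 3.94 and 3.12 FPKM in normal folds and at 1.53, 0.688 and 0.686 FPKM in untreated folds (log2 -1.94, SE 0.38, adjusted p = 0.00677). MYOD1, a muscle determination factor, did not pass, with 2.86, 2.55 and 2.8 FPKM against 7.61, 1.42 and 3.92 FPKM (adjusted p = 0.446). The part of the lower muscle and cartilage marker sums in these values was not tested.

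Few epithelial transcription factors were called by this rule: 2 (0 to 2) of 41 rose and 1 (1 to 7) fell. With all libraries alone 2 were higher and 9 lower, and the median log2 difference was -0.4. BNC1, a factor of basal keratinocytes, was at 0.956, 0.921 and 2.51 FPKM in normal folds and at 3.64, 7.44 and 5.91 FPKM in untreated folds (log2 1.99, SE 0.44, adjusted p = 0.0104). HES6 rose by 1.22 and GATA3 fell by 0.96. TP63, the basal-cell master factor, was at 19, 12 and 23.1 FPKM against 12.7, 14.9 and 13.8 FPKM, and the groups overlapped (adjusted p = 0.29).

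Clock genes included 4 (2 to 5) risen and 3 (0 to 5) fallen members of 22. In shares this is 18.2% and 13.6%, against 10.5% and 6.73% of all tested genes. ARNTL2, a paralogue of the core activator ARNTL on chromosome 8 at 12857726 to 12923249, was at 0.559, 0.401 and 0.812 FPKM in normal folds and at 4.36, 6.63 and 5.69 FPKM in untreated folds (log2 3.26, SE 0.67, adjusted p = 0.00835). ARNTL itself did not pass, with means of 5.11 and 6.41 FPKM. HLF, a clock output factor of the PAR bZIP family, was at 14, 19.6 and 16.6 FPKM against 4.69, 1.42 and 2.85 FPKM (log2 -2.45, SE 0.49, adjusted p = 0.00756). BHLHE40 rose by 1.44 and TIMELESS, which also acts at replication forks, by 1.53, while CRY2 fell by 1.15 on the log2 scale. NR1D1, a repressor arm of the clock, did not pass, at 4.82, 11.7 and 8.53 FPKM against 4.63, 2.49 and 3.57 FPKM (adjusted p = 0.0996). The labels give no time of day for the samples.

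Nuclear receptors, the ligand-gated factors for steroids, thyroid hormone, retinoids and lipids, had 7 (4 to 10) fallen and 2 (2 to 2) risen members of 41, with a median log2 difference of -0.74. The risen members were the vitamin D receptor and a retinoic acid receptor. VDR was at 0.965, 1.71 and 1.86 FPKM in normal folds and at 10.2, 13 and 13.2 FPKM in untreated folds (log2 3.03, SE 0.25, adjusted p = 0.00032), an 8.18-fold difference. RARA went from 6.82, 9.23 and 7.47 to 16.7, 25.1 and 21.7 FPKM (log2 1.47, SE 0.25, adjusted p = 0.00408).

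Its paralogue RARB moved the other way, from 7.86, 7.09 and 11 to 3.28, 2.11 and 3.21 FPKM (log2 -1.56, SE 0.22, adjusted p = 0.00218). NR3C2, the mineralocorticoid receptor gene, on chromosome 15 at 16126910 to 16518861, was at 7.58, 5.93 and 5.04 FPKM against 2.15, 0.842 and 1.13 FPKM (log2 -2.14, SE 0.43, adjusted p = 0.00731). Of the thyroid hormone receptors, THRB fell by 2.08 and THRA by 1.11, and the fatty acid receptor gene PPARA fell by 1.19 on the log2 scale. NR3C1, the glucocorticoid receptor gene, showed a small fall, from 15.4, 15.7 and 14.6 to 11.6, 9.66 and 10.5 FPKM (log2 -0.49, SE 0.1, adjusted p = 0.00856).

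ESR1, PGR and PPARG, receptor genes for oestrogen, progesterone and fatty acid ligands, did not meet the rule. ESR1 was at 6.63, 3.31 and 5.2 FPKM against 2.88, 0.542 and 1.06 FPKM, which did not overlap but differed with adjusted p = 0.0949. PPARG, the fat-cell receptor, was at 4.17, 2.59 and 2.44 FPKM against 2.72, 2.71 and 2.62 FPKM (adjusted p = 0.641), and PGR was under 0.5 FPKM in every library.

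**Figure D3:**
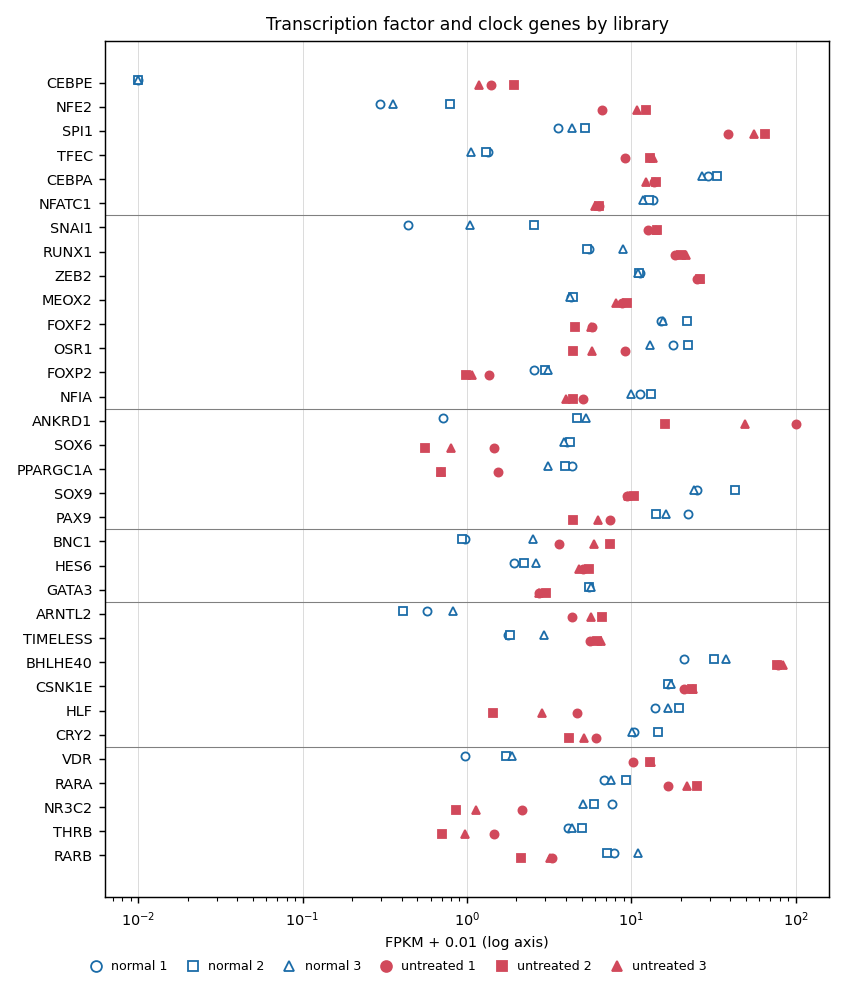
Deposited FPKM plus 0.01 (log axis) in each library for the named genes of 6 lists, separated by grey lines: leukocyte factors, mesenchymal factors, muscle, cartilage and glial factors, epithelial factors, clock genes and nuclear receptors. Open blue points are normal and filled red points untreated folds. CEBPE sits at the left edge in all 3 normal libraries because its FPKM was 0 there.

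The table's own transcription factor family column was read in the same way. Of 808 tested genes with a family, 89 rose and 57 fell (7.05%), which is near the shares over all tested genes. In the T-box family 5 (5 to 6) of 9 tested members fell and none rose. T-box factors pattern limbs, heart and airways in the embryo. The family and the members below were singled out after their values were seen.

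TBX4 was at 3.91, 6.12 and 3.13 FPKM in normal folds and at 0.195, 0.193 and 0.0213 FPKM in untreated folds (log2 -4.93, SE 0.67, adjusted p = 0.00176), and TBX5 went from 3.71, 7.66 and 2.9 to 0.464, 0.0904 and 0.108 FPKM (log2 -4.37, SE 0.69, adjusted p = 0.00301). TBX18, TBX3 and TBX2 fell by 2.09, 1.32 and 0.84 on the log2 scale. Homeobox genes, which set position along the body, showed 8 risen and 8 fallen of 79. That is 10.1% each way, against 10.5% and 6.73% of all tested genes. ISL1 fell from 20.4, 21.1 and 21.5 to 7.05, 3.53 and 4.17 FPKM, and SHOX2 and ALX1 fell by 2.05 and 2.96 on the log2 scale.

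EN1, a homeobox factor of skin and brain patterning, had 0 counts in all 3 normal libraries and 1.2, 0.819 and 1.07 FPKM in untreated folds, at least 49.8-fold higher against the same floor (adjusted p = 0.00118). Among bZIP factors 10 (5 to 11) of 36 rose and 2 (0 to 3) fell. Those that rose included BATF2 (log2 3.42), BACH1 (log2 1.45), FOSL2 (log2 1.22), the stress sensor ATF6 (log2 1.11) and NFE2L2, the NRF2 gene of the antioxidant response (log2 0.58). In the bHLH family 9 (7 to 10) of 53 rose and HEY1 fell. That is 17% risen and 1.89% fallen, against 10.5% and 6.73% of all tested genes. MXD1, an antagonist of MYC, was at 8.34, 10.8 and 16.8 FPKM in normal folds and at 74.3, 76.8 and 77.9 FPKM in untreated folds (log2 2.71, SE 0.59, adjusted p = 0.0104), and TFE3, a factor of lysosome genes, rose by 1.03 on the log2 scale.

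Receptor tyrosine kinases, which read growth factors, had 6 (5 to 7) risen and 4 (3 to 8) fallen members of 51, near the shares over all genes. CSF1R, the macrophage growth factor receptor on chromosome 3 at 31834455 to 31858288, was at 24.3, 28.8 and 24.2 FPKM in normal folds and at 97.7, 132 and 124 FPKM in untreated folds (log2 2.22, SE 0.18, adjusted p = 0.0003). IGF2R, which clears IGF2 and sorts lysosomal enzymes, rose by 1.75. It was counted in this list although it is not a kinase. KDR, the endothelial VEGF receptor, rose by 1.19. PTK7, a co-receptor of planar polarity signalling, was at 19.1, 22.3 and 19.9 FPKM against 36.9, 55.2 and 52.6 FPKM (log2 1.27, SE 0.19, adjusted p = 0.00234).

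Receptors for neurotrophins and one for fibroblast growth factors were among those that fell. NTRK2, the BDNF receptor gene, was at 18.3, 32.7 and 19 FPKM in normal folds and at 5.02, 2.59 and 3.15 FPKM in untreated folds (log2 -2.67, SE 0.34, adjusted p = 0.00131). NTRK3, the receptor gene for neurotrophin-3, was at 2.87, 2.97 and 1.67 FPKM against 0.177, 0 and 0.197 FPKM (log2 -4.23, SE 1, adjusted p = 0.0139). EPHA7, a receptor for membrane-bound ephrins, went from 8.68, 14.2 and 8.88 to 1.37, 0.44 and 0.608 FPKM (log2 -3.68, SE 0.43, adjusted p = 0.000983). In each of these the normal replicate 2 value was the highest, and that library also had the highest nerve marker sum, at 627 FPKM. Among the normal libraries it had the highest cartilage, gland, endothelial and fibroblast sums as well, so the match is not particular to nerve.

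FGFR2 fell from 29.9, 38.1 and 27.9 to 10.3, 7.61 and 8.05 FPKM (log2 -1.85, SE 0.23, adjusted p = 0.00118). EGFR, PDGFRA and KIT, receptors of epithelium, fibroblasts and mast cells or melanocytes, did not pass. EGFR was at 15.1, 12 and 18.8 FPKM against 12.7, 14 and 13.6 FPKM (adjusted p = 0.509), PDGFRA was at 29, 27.2 and 26.2 FPKM against 33.5, 36.9 and 34.3 FPKM (adjusted p = 0.352), and KIT had adjusted p = 0.0535. The part of nerve content in the neurotrophin receptor values was not tested.

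Receptors for lipid mediators, nucleotides and metabolites rose in 20 (12 to 25) of 58 cases and fell in 1 (0 to 2), with a median log2 difference of 0.83. Many of these G-protein coupled receptors guide leukocytes. The neutrophil, macrophage, endothelial and fibroblast marker sums were also higher in every untreated library. The part of cell content in the receptor values was not tested. CCRL2, an atypical receptor that binds chemerin, lies on chromosome 9 at 14577419 to 14579447. It was at 0.918, 3.37 and 2.5 FPKM in normal folds and at 137, 139 and 160 FPKM in untreated folds (log2 6.04, SE 1.2, adjusted p = 0.00718). FPR2, a receptor for formyl peptides and the resolution lipid lipoxin, went from 0.713, 2.31 and 1.99 to 126, 68.1 and 92 FPKM (log2 5.86, SE 1.33, adjusted p = 0.0118).

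GPR84, which senses medium-chain fatty acids, was at 0.0415, 0.421 and 0.433 FPKM in normal folds and at 20.2, 8.73 and 14.5 FPKM in untreated folds (log2 5.62, SE 1.09, adjusted p = 0.00648). PTAFR, the receptor gene for platelet-activating factor, went from 1.43, 2.17 and 2.24 to 37.6, 46 and 45.8 FPKM (log2 4.5, SE 0.51, adjusted p = 0.000893). The niacin and hydroxybutyrate receptor gene HCAR2 rose by 4.48. The adenosine receptor genes ADORA2A and ADORA2B rose by 3.03 and 2.31, and the prostacyclin and prostaglandin E receptor genes PTGIR and PTGER4 by 2.3 and 0.87 on the log2 scale. GPR65, a receptor for extracellular acid, rose by 2.93.

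Lysophospholipid receptors went both ways. LPAR2 rose by 1.8 on the log2 scale, whereas LPAR3 fell from 8.24, 5.26 and 5.86 to 2.48, 2.54 and 2.28 FPKM (log2 -1.38, SE 0.26, adjusted p = 0.006). LPAR1, tied to fibrosis in other organs, was at 12.9, 16.1 and 12.9 FPKM against 10.8, 9.42 and 10.5 FPKM and did not pass (adjusted p = 0.111). S1PR2 rose by 1.62, while S1PR3 had a similar difference of 1.75 but did not pass, at 2.12, 2.41 and 1.5 FPKM against 6.8, 5.79 and 7.23 FPKM (adjusted p = 0.0527).

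Receptors for hormones, neurotransmitters and neuropeptides included 7 (6 to 12) risen and 6 (6 to 13) fallen members of 64. The shares were 10.9% and 9.38%, against 10.5% and 6.73% of all tested genes. APLNR, the apelin receptor of vessels on chromosome 1 at 190343913 to 190347517, was at 5.73, 5.78 and 5.82 FPKM in normal folds and at 26, 29.7 and 27.9 FPKM in untreated folds (log2 2.3, SE 0.23, adjusted p = 0.000615). HTR2A, a serotonin receptor gene, went from 0.124, 0.293 and 0.275 to 3.43, 4.01 and 3.61 FPKM (log2 4.01, SE 0.64, adjusted p = 0.00306). HTR7, another serotonin receptor, rose by 2.14, the dopamine receptor gene DRD1 by 2.08, the endothelin receptor gene EDNRA by 1.89 and the thrombin receptor gene F2R by 1.67. EDNRB, the second endothelin receptor, was at 5.99, 6.73 and 6.89 FPKM against 8.89, 7 and 7.75 FPKM and did not pass (adjusted p = 0.489).

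The leptin receptor fell furthest among the members that the rule for named genes took. LEPR, on chromosome 13 at 100681621 to 100820937, was at 5.52, 17.7 and 8.9 FPKM in normal folds and at 0.506, 0.173 and 0.203 FPKM in untreated folds (log2 -5.14, SE 0.67, adjusted p = 0.00155), a 35.3-fold difference. PRLR, the prolactin receptor gene, went from 3.04, 2.77 and 1.32 to 0.62, 0.458 and 0.362 FPKM (log2 -2.28, SE 0.38, adjusted p = 0.00349). GHR, the growth hormone receptor gene, fell by 1.04 on the log2 scale. RAMP1, a subunit of the CGRP receptor, was at 23.3, 23.8 and 20.3 FPKM against 10.6, 4.32 and 6.25 FPKM (log2 -1.64, SE 0.3, adjusted p = 0.00499), while its partner CALCRL did not pass, with means of 13.8 and 12.7 FPKM.

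CHRM3, the muscarinic receptor of gland secretion, was at 2.24, 1.9 and 0.218 FPKM against 0.376, 0.103 and 0.229 FPKM and did not pass (adjusted p = 0.0925). Normal replicate 3 was low for CHRM3 as it was for the gland marker sum. Among the normal libraries it also had the lowest cartilage, nerve, adipocyte and T and B cell sums. The match is thus not particular to gland, and the part of gland content was not tested.

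Axon guidance genes, whose products also steer vessels and leukocytes, showed 8 (5 to 12) risen and 8 (7 to 14) fallen members of 56. That is 14.3% each way, against 10.5% and 6.73% of all tested genes. SEMA7A, a membrane-anchored semaphorin, was at 8.38, 7.4 and 8.35 FPKM in normal folds and at 33.5, 28.7 and 35.5 FPKM in untreated folds (log2 2.05, SE 0.27, adjusted p = 0.00164). SEMA4D rose by 1.51, and the receptor genes UNC5B, NRP2, PLXND1 and NRP1 rose by 1.8, 1.62, 1.13 and 1.01 on the log2 scale. Secreted class 3 semaphorins, by contrast, were among the fallen: SEMA3D went from 13.5, 10.4 and 8.01 to 1.38, 0.832 and 0.892 FPKM (log2 -3.33, SE 0.38, adjusted p = 0.000899).

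SEMA3B was at 26, 39.6 and 28.9 FPKM against 6.36, 2.9 and 3.6 FPKM (log2 -2.84, SE 0.3, adjusted p = 0.000755), and SEMA3C fell by 1.09. SEMA3A, SEMA3E, SEMA3F and SEMA3G were not called, with log2 differences of 0.38, 1.16, 0.37 and -0.23. UNC5C, a netrin receptor related to UNC5B, fell by 3.25 and the plexin gene PLXNB3 by 2.06. The netrin receptor genes UNC5B and UNC5C thus moved in opposite directions.

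Notch and Hedgehog genes had 3 (2 to 6) risen and 7 (5 to 9) fallen members of 37. In shares this is 8.11% and 18.9%, against 10.5% and 6.73% of all tested genes. MFNG, which modifies Notch with sugars, was at 9.35, 14.5 and 11.7 FPKM against 23.5, 37.5 and 36.6 FPKM (log2 1.49, SE 0.26, adjusted p = 0.00397), and RBPJ, the DNA-binding partner of Notch, rose by 0.98. On the Hedgehog side the effector gene GLI3 rose by 1.33, whereas HHIP, CDON and BOC, which bind the ligand at the cell surface, fell. HHIP, a decoy that traps Hedgehog, on chromosome 15 at 19927099 to 20030825, was at 12.7, 16.5 and 12.7 FPKM in normal folds and at 0.97, 0.267 and 0.412 FPKM in untreated folds (log2 -4.63, SE 0.57, adjusted p = 0.00121).

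SCUBE1, a secreted and membrane-bound glycoprotein of the family that helps release Hedgehog, went from 33.6, 78.2 and 32.3 to 2.49, 1.38 and 0.971 FPKM (log2 -4.86, SE 0.89, adjusted p = 0.0051). The co-receptor genes CDON and BOC fell by 1.45 and 1.34, and DLK2, a non-canonical Notch ligand, by 1.86 on the log2 scale. The receptor and transducer genes PTCH1 and SMO did not pass the rule, with log2 differences of -0.82 and 0.14.

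**Figure D4:**
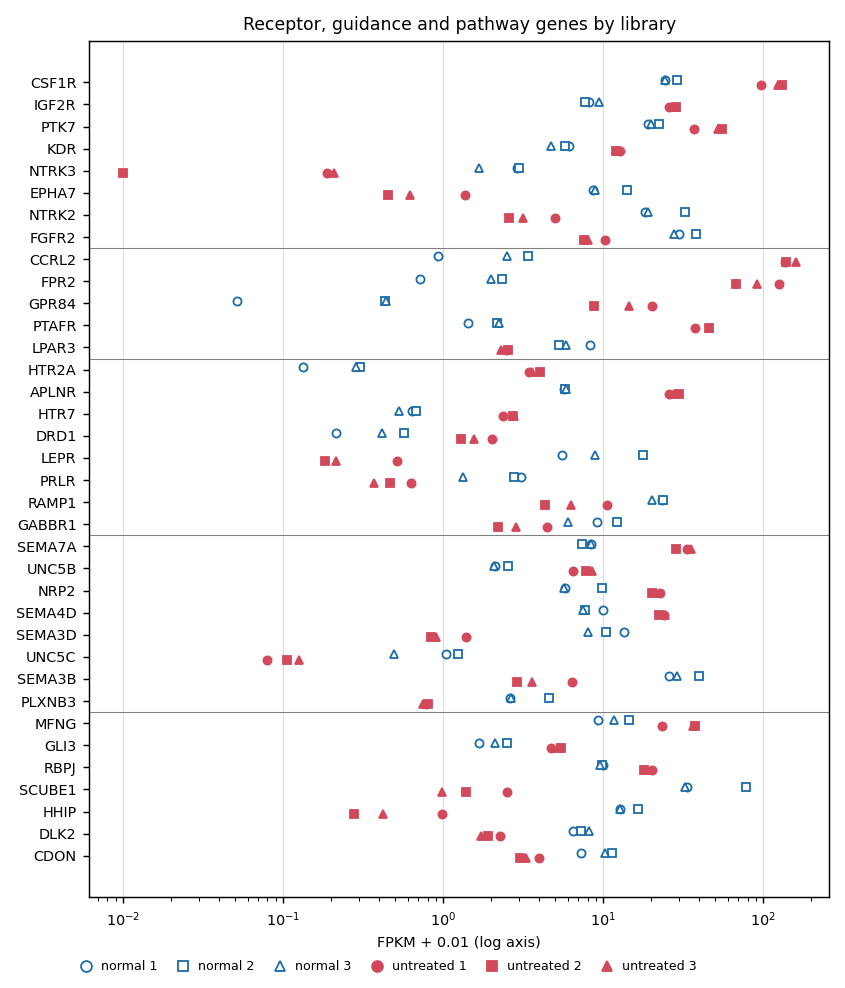
Deposited FPKM plus 0.01 (log axis) in each library for the named genes of 5 lists, separated by grey lines: receptor tyrosine kinases, receptors for lipid mediators, nucleotides and metabolites, receptors for hormones and transmitters, axon guidance genes, and Notch and Hedgehog genes. CCRL2 lies between 137 and 160 FPKM in untreated folds, and LEPR, HHIP and SCUBE1 lie lower in every untreated library.

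Cholesterol synthesis genes moved down where they moved. Of 24 tested members 5 (4 to 10) fell, none rose, and the median log2 difference was -0.43. HMGCS1, an early enzyme of the route, on chromosome 11 at 64082862 to 64104247, was at 38.2, 34.5 and 61.8 FPKM in normal folds and at 21.3, 18.6 and 18.5 FPKM in untreated folds (log2 -1.17, SE 0.21, adjusted p = 0.00525). IDI1, FDFT1 and SQLE, later steps of the same route, fell by 0.98, 0.98 and 0.84.

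Genes of lipid uptake, storage and efflux included 5 (5 to 8) risen members of 30. TREM2, a lipid-sensing receptor of macrophages on chromosome 12 at 30912285 to 30929438, was at 6.04, 6.53 and 6.37 FPKM in normal folds and at 44.5, 72.6 and 60.9 FPKM in untreated folds (log2 3.26, SE 0.22, adjusted p = 0.000211). GPNMB, a glycoprotein of lipid-laden macrophages, went from 7.84, 6.53 and 6.53 to 49.3, 77 and 70 FPKM (log2 3.26, SE 0.27, adjusted p = 0.000302). ABCA1, the cholesterol exporter, rose from 4.02, 5.36 and 4.68 to 14.2, 13.8 and 14.5 FPKM (log2 1.63, SE 0.15, adjusted p = 0.00052).

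PLIN2, the coat protein of lipid droplets, rose by 2.04 and LIPA, the lysosomal lipase, by 1.71 on the log2 scale. Members that fell, 4 (3 to 4) in number, were FABP3, LPL, LCAT and MYLIP. FABP3, the fatty acid carrier of muscle, was at 60.9, 73.7 and 42.4 FPKM against 13.9, 6.03 and 8.88 FPKM (log2 -2.59, SE 0.45, adjusted p = 0.0044). LPL, which frees fatty acids from lipoproteins for muscle and fat, was at 51.9, 55.3 and 49.3 FPKM against 11.8, 17.4 and 15.1 FPKM (log2 -1.79, SE 0.21, adjusted p = 0.00098).

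Fatty acid and triglyceride synthesis had no risen (0 to 6) and 4 (4 to 8) fallen members of 40. The fallen share was 10%, against 6.73% of all tested genes. ME1, which supplies NADPH, was at 10.1, 19.4 and 8.62 FPKM against 3.34, 3.32 and 3.21 FPKM (log2 -1.91, SE 0.35, adjusted p = 0.00514), and the desaturase gene SCD5 fell by 1.89. GPAM and AGPAT5, early enzymes of glycerolipid synthesis, fell by 0.99 and 0.65.

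Glycogen, creatine and purine cycle genes, most of them abundant in muscle, had a median log2 difference of -0.89. Yet 3 (3 to 16) of 33 fell and 1 (0 to 2) rose. That is 9.09% fallen and 3.03% risen, against 6.73% and 10.5% of all tested genes. CKM, muscle creatine kinase, was at 2190, 1690 and 2020 FPKM in normal folds and at 405, 30.5 and 173 FPKM in untreated folds (log2 -3.25, SE 0.95), with adjusted p = 0.0319 for all libraries and up to 0.108 with 1 left out. Its untreated values spread by more than 10-fold, in the same order as the muscle marker sums and several other marker sums, such as gland and nerve. PYGL, the liver-type glycogen phosphorylase that leukocytes also use, rose from 3.21, 4 and 2.47 to 17.9, 30.7 and 25.9 FPKM (log2 2.98, SE 0.6, adjusted p = 0.00776). The fallen members were EPM2A, PHKA2 and GBE1, with log2 differences of -1.66, -1.01 and -0.64. The muscle counterpart of PYGL, PYGM, had means of 479 and 89.6 FPKM and did not pass.

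Pentose phosphate and nucleotide synthesis genes rose in 10 (3 to 12) of 46 cases, and none fell (0 to 1). SAMHD1, a dNTP hydrolase abundant in myeloid cells, was at 16.4, 18.7 and 19.6 FPKM in normal folds and at 47.4, 83.4 and 72.3 FPKM in untreated folds (log2 1.93, SE 0.37, adjusted p = 0.00636). It was counted in this list although it breaks down DNA precursors and does not make them. RRM2 and TK1, which make DNA precursors in dividing cells, rose by 1.45 and 0.97, and IMPDH1 and TKT, of guanine synthesis and the pentose pathway, by 0.95 and 0.85 on the log2 scale.

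Serine, one-carbon, proline and glutamine genes had 2 (0 to 4) risen and 4 (2 to 7) fallen members of 40. In shares this is 5% and 10%, against 10.5% and 6.73% of all tested genes. The mitochondrial serine enzyme SHMT2 rose by 1.18 and the cysteine-forming enzyme CTH by 1.02. Both aspartate aminotransferases of the malate-aspartate shuttle fell. GOT1 was at 160, 170 and 134 FPKM against 48, 19.1 and 29.1 FPKM (log2 -2.24, SE 0.39, adjusted p = 0.00434), and GOT2 was at 159, 157 and 142 FPKM against 62.2, 51.9 and 53.9 FPKM (log2 -1.42, SE 0.15, adjusted p = 0.000702). PHGDH, the first enzyme of serine synthesis, did not pass (adjusted p = 0.361).

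The list of arginine, polyamine, tryptophan and NAD genes had 9 (6 to 10) risen and 2 (1 to 3) fallen members of 35. IDO1, which opens the kynurenine route of tryptophan breakdown, was at 20.3, 23 and 19.6 FPKM in normal folds and at 510, 573 and 597 FPKM in untreated folds (log2 4.77, SE 0.71, adjusted p = 0.00238), a 27.3-fold difference. IDO2 went from 0.27, 0.34 and 0.242 to 2.37, 4.56 and 3.64 FPKM (log2 3.61, SE 0.52, adjusted p = 0.0022).

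Downstream, KMO was at 0, 0.104 and 0.0992 FPKM against 2, 1.49 and 1.51 FPKM (log2 4.56, SE 0.82, adjusted p = 0.00492), and KYNU rose by 3.45. AADAT, the branch that makes kynurenic acid, fell from 8.21, 8.04 and 6.7 to 3.47, 2.64 and 3.43 FPKM (log2 -1.24, SE 0.16, adjusted p = 0.00142). HAAO, QPRT and NAMPT, toward and around NAD, did not pass, with log2 differences of 0.25, 0.75 and 0.03.

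Arginine enzymes also split. ARG1, which turns arginine into ornithine, on chromosome 12 at 121799266 to 121811748, was at 14.9, 17.9 and 27.4 FPKM in normal folds and at 105, 76.4 and 92.1 FPKM in untreated folds (log2 2.22, SE 0.32, adjusted p = 0.00207). NOS2, the inducible nitric oxide synthase, was at 4.91, 4.67 and 2.64 FPKM against 1.12, 0.59 and 0.897 FPKM (log2 -2.2, SE 0.48, adjusted p = 0.00997). SAT1, which acetylates polyamines, rose by 0.99 from a mean of 327 FPKM, and CD38, an NAD hydrolase of leukocytes, by 2.91.

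Retinoid, steroid and xenobiotic genes had 5 (5 to 10) risen and 4 (4 to 9) fallen members of 55. These shares, 9.09% and 7.27%, are near those over all tested genes. The risen retinoid genes were ALDH1A3, CRABP1 and CRABP2. ALDH1A3, which makes retinoic acid, was at 10.2, 9.77 and 8.12 FPKM in normal folds and at 47.2, 77.1 and 69.1 FPKM in untreated folds (log2 2.82, SE 0.41, adjusted p = 0.0023). CRABP1 and CRABP2, which bind retinoic acid in the cell, rose by 1.91 and 0.97 on the log2 scale. RBP4, the retinol carrier, on chromosome 18 at 41282989 to 41288413, went from 129, 214 and 103 to 27, 16.8 and 19.3 FPKM (log2 -2.79, SE 0.39, adjusted p = 0.00198).

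ALDH1A1, the more abundant retinaldehyde enzyme, was at 444, 341 and 579 FPKM against 277, 150 and 190 FPKM, with adjusted p = 0.0307 for all libraries and up to 0.104 with 1 left out. Of the vitamin A storage and clearance genes, LRAT and CYP26B1 were lower with all libraries but not in each left-out fit, with means of 11.2 against 1.15 FPKM and 8.33 against 4.83 FPKM. The dioxin receptor gene AHR rose by 1.24, while the flavin monooxygenase gene FMO2 fell from 34.2, 20.6 and 19.6 to 5.32, 0.739 and 2.09 FPKM (log2 -3.16, SE 0.66, adjusted p = 0.00871). CYP1B1, an AHR target gene, did not pass (adjusted p = 0.609).

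Glycosaminoglycan assembly genes had 9 (7 to 10) risen and 6 (2 to 9) fallen members of 53. These shares, 17% and 11.3%, stand beside 10.5% and 6.73% of all tested genes. Chondroitin sulfate genes CHSY3, CSGALNACT2, CHST15 and CHSY1 and the dermatan epimerase gene DSE rose by 2, 1.44, 1.24, 1.1 and 0.9 on the log2 scale. CHSY3 was at 0.888, 1.22 and 1.4 FPKM in normal folds and at 4.53, 4.31 and 4.89 FPKM in untreated folds (SE 0.31, adjusted p = 0.00268). Heparan sulfate genes gave both signs, since the polymerase genes EXT1 and EXT2 rose by 1.31 and 0.61, whereas EXTL1, HS3ST3A1, HS3ST3B1, HS3ST5 and EXTL2 fell.

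HS3ST3A1, which adds a rare sulfate to heparan, was at 3.39, 5.93 and 4 FPKM against 0.758, 0.784 and 0.933 FPKM (log2 -2.39, SE 0.24, adjusted p = 0.000615), and its paralogue HS3ST3B1 fell by 1.51. SULF1, which removes sulfate groups from heparan sulfate outside the cell, on chromosome 3 at 85453737 to 85615815, rose from 8.32, 11.3 and 10.9 to 34.3, 58.5 and 50.5 FPKM (log2 2.27, SE 0.43, adjusted p = 0.00594). No test of a difference between the branches was run.

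Among zinc, copper and metallothionein genes 9 (5 to 10) of 33 rose and 1 (0 to 3) fell. STEAP1, STEAP2, STEAP3 and STEAP4, which are or resemble reductases of iron and copper, rose by 1.62, 2.44, 1.25 and 1.42. STEAP4, on chromosome 10 at 40165375 to 40189632, was at 49.6, 75.4 and 96 FPKM against 197, 182 and 197 FPKM (SE 0.32, adjusted p = 0.0111). CP, the copper oxidase ceruloplasmin, rose from 13.2, 29.7 and 18.2 to 46.7, 76 and 64.1 FPKM (log2 1.65, SE 0.34, adjusted p = 0.00822). The importer gene SLC39A8 was the fallen member, with a log2 difference of -0.64.

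**Figure D5:**
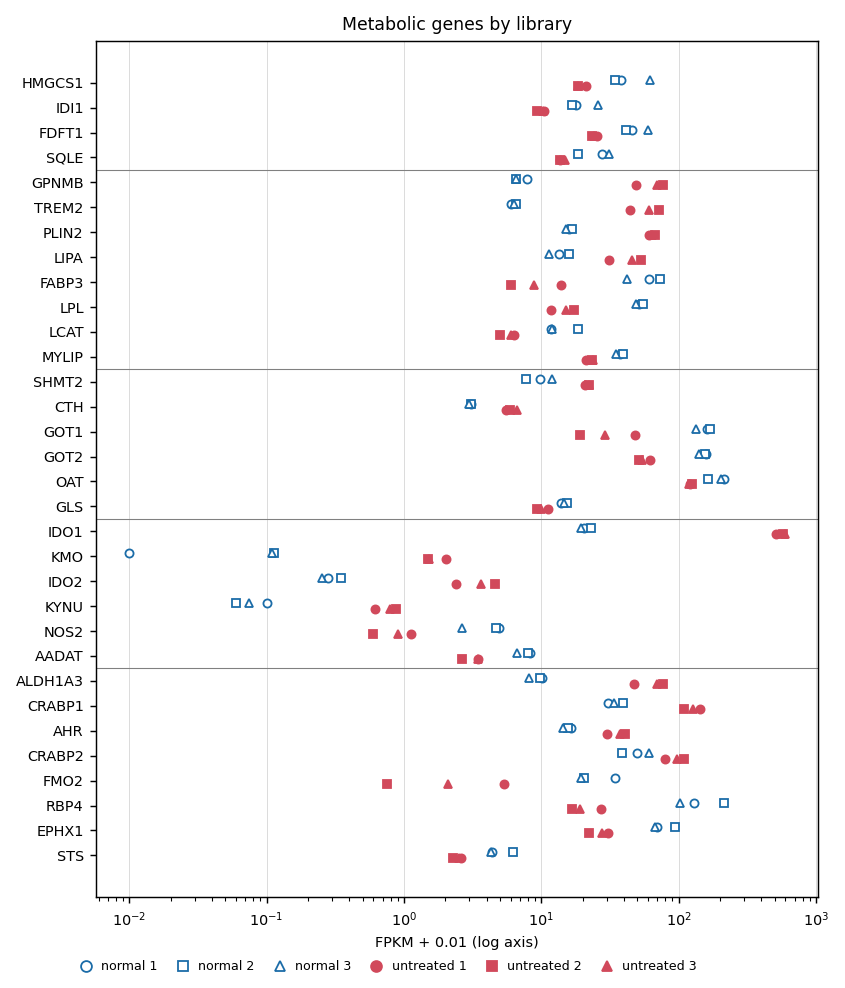
Deposited FPKM plus 0.01 (log axis) in each library for the named genes of 5 metabolic lists, separated by grey lines: cholesterol synthesis, lipid uptake and efflux, serine to glutamine, arginine to NAD, and retinoid, steroid and xenobiotic genes. IDO1 lies between 510 and 597 FPKM in untreated and between 19.6 and 23 FPKM in normal folds.

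The KEGG column gave terms to 7306 of the tested genes, of which 984 rose (13.5%) and 520 fell (7.12%). Its 2042 tested genes with a code starting 00 or 01 split nearly evenly, 228 risen (11.2%) and 209 fallen (10.2%). These codes cover metabolism but also some drug resistance terms, such as platinum drug resistance. Among the 288 terms with at least 20 tested genes, the 10 with the highest risen share were mostly named for infections and immune disease. They were led by leishmaniasis (42 of 83), osteoclast differentiation (65 of 139), inflammatory bowel disease (28 of 63), Staphylococcus aureus infection (26 of 59), asthma (15 of 36) and lysosome (56 of 141). The other 4 were rheumatoid arthritis, the intestinal network for IgA, blood cell lineages and malaria. These terms share genes, and FCGR2A, an antibody receptor gene, was among the 3 leading genes of 2 of them, at 0.337, 0.455 and 0.526 FPKM against 10.3, 13.2 and 12.4 FPKM (log2 4.8, SE 0.34, adjusted p = 0.000219). In osteoclast differentiation the leading genes were 3 genes described as leukocyte immunoglobulin-like receptors, close relatives whose reads may be shared.

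The lysosome term, which groups the acid hydrolases and membrane proteins of that organelle, had 56 (43 to 65) risen and 4 fallen genes. CTSE, an aspartic protease, was at 12, 3.6 and 2.73 FPKM in normal folds and at 92, 116 and 113 FPKM in untreated folds (log2 4.15, SE 0.93, adjusted p = 0.0115). LAPTM5, a lysosomal membrane protein of leukocytes, rose by 2.89. Of the terms with a metabolism code, singled out after their values were seen, other glycan degradation (9 of 27), glycosaminoglycan degradation (7 of 21) and galactose metabolism (10 of 35) had the highest risen shares.

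These terms overlap in the lysosomal galactosidase gene GLB1, which rose from a mean of 35.4 to 95.4 FPKM (log2 1.46). The mannosidase gene MAN2B1 rose by 2.22, the glucuronidase gene GUSB by 1.68 and the sulfatase gene ARSB by 1.45 on the log2 scale. The column's terms were used as deposited, although some entries look out of place: the transcription factor genes ARID5A and ARID5B, for example, are filed under galactose metabolism.

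Among the 10 terms with the highest fallen share, the citrate cycle led with 18 (14 to 22) of 42 fallen and 1 risen, followed by oxidative phosphorylation with 52 (41 to 72) of 130 fallen and 11 risen. The Parkinson (54 of 139), Alzheimer (56 of 170), Huntington (57 of 193), fatty liver disease (50 of 156) and thermogenesis (68 of 231) terms all had the complex I gene NDUFB1 among their leading genes. SDHA, the catalytic subunit of succinate dehydrogenase, was at 268, 265 and 235 FPKM in normal folds and at 115, 75.7 and 90.9 FPKM in untreated folds (log2 -1.42, SE 0.23, adjusted p = 0.00305). MDH2, the malate dehydrogenase of the cycle, fell by 1.31.

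Pyruvate metabolism (15 of 52) followed with the acetate-activating enzyme ACSS1, at 51.6, 59.3 and 48.5 FPKM against 14.8, 6.94 and 10 FPKM (log2 -2.3, SE 0.4, adjusted p = 0.00446), and with ALDH2, which fell by 1.97. Breakdown of valine, leucine and isoleucine (14 of 68), propanoate (9 of 40) and fatty acids (10 of 50), also singled out after their values were seen, had fallen genes in common. ACADM, medium-chain acyl-CoA dehydrogenase, fell from a mean of 50.4 to 15.5 FPKM, and ECHS1 from 95.6 to 41.8 FPKM. Untreated replicate 1 was the highest of the 3 for SDHA, MDH2 and ACSS1 and replicate 2 the lowest, the same order as the muscle marker sums. The gland, squamous, thyroid, nerve, adipocyte and T and B cell marker sums had this order too. The part of muscle or other tissue content in these falls was not tested.

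The remaining terms were heparan sulfate synthesis (7 of 23), described above, and retrograde endocannabinoid signalling (33 of 129). The latter holds many complex I genes, and its leading members were the ion channel genes GRIA2, KCNJ5 and GABRE, which were under 1.1 FPKM in every library and fell by 2.77, 2.74 and 2.43 on the log2 scale.

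Over all genes with a symbol and at least 10 CPM (counts scaled to library size) in the higher group, the largest rises included genes outside the matrix protease and chemokine receptor families. ACOD1, which makes itaconate from the citrate cycle in activated macrophages, was at 1.02, 4.55 and 4.41 FPKM in normal folds and at 223, 201 and 232 FPKM in untreated folds (log2 6.08, SE 1.05, adjusted p = 0.00407). OSM, the cytokine oncostatin M, went from 0.623, 0.484 and 0.522 to 28.4, 23.4 and 28.4 FPKM (log2 5.63, SE 1.07, adjusted p = 0.00596). PGLYRP1, a granule protein that binds bacterial cell walls, was at 1.24, 11.6 and 10.1 FPKM against 157, 535 and 415 FPKM (log2 5.63, SE 1.38, adjusted p = 0.0162).

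MYBPC3, known as the cardiac form of a thick-filament protein, was at 0, 0.127 and 0.0415 FPKM in normal folds and at 4.8, 3.01 and 3.68 FPKM in untreated folds (log2 6.07, SE 1.15, adjusted p = 0.00585), while the skeletal markers listed above lay lower in untreated folds. Its skeletal relative MYBPC1 had means of 213 and 40.1 FPKM. MYBPC3 lies on chromosome 1 at 186663157 to 186679331, close to SPI1, which starts at 186682134 and also rose. Whether reads from SPI1 were counted for MYBPC3 was not tested. The other genes among the 10 largest rises were MMP9, MMP13, MMP12, CCRL2, FPR2 and CXCR2.

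The 10 largest falls were of the cartilage collagen genes COL9A1, COL2A1, COL9A2 and COL11A2, MIA and SCRG1, both known from cartilage, the slow-muscle light chain gene MYL3, and ITIH6, METTL7B and MYOC. MYOC, an extracellular olfactomedin protein, was at 245, 463 and 195 FPKM in normal folds and at 9.41, 5.55 and 1.82 FPKM in untreated folds (log2 -5.71, SE 0.71, adjusted p = 0.00121). MYL3 was at 24.6, 64.6 and 62.7 FPKM against 1.39, 0.156 and 0.392 FPKM (log2 -6.24, SE 0.84, adjusted p = 0.0017). METTL7B, a methyltransferase-like protein of lipid droplets, was at 7.95, 4.18 and 7.73 FPKM against 0.254, 0.0786 and 0 FPKM (log2 -5.83, SE 1.04, adjusted p = 0.00462).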

How the data were processed

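Polyadenylated RNA was sequenced from 9 vocal fold libraries in groups of 3, as the labels give them. Cutadapt 1.9, HISAT2 2.0.4, StringTie 1.3.4d and edgeR and the build OryCun2.0 are named in the submitters' processing notes, while which step used which tool, the strandedness and how shared reads were treated were not given in these sources. The authors deposited 1 table of 20525 genes that holds counts and FPKM for every library, per the file headers. Genes that overlap or have near-identical copies are uncertain to that extent.

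The deposited counts entered edgeR 4.0.16 under R 4.3.3 (filterByExpr, TMM, quasi-likelihood, Benjamini-Hochberg over 17344 genes, all 9 libraries, group means only), with a refit without each library. Each library had 53 to 79 genes at a count of 1 against 350 to 419 at a count of 4, so the deposited counts may not be plain read tallies. Floors of 3 counts are in this deposited unit and cover counting error only. Scripts were tested on simulated data. Alternatives were DESeq2 1.42.0, upper-quartile scaling, no filter, 6 libraries, a replicate block, limma 3.58.1 on log2(FPKM + 0.1) and on log2(FPKM + 1), and an adjusted p under 0.01.

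The comparison, gene lists and rule for named genes were chosen with earlier results of these data known. The rule took, in each list, up to 4 risen and 4 fallen members with the largest change, non-overlapping groups and at least 2 CPM in the higher group, or, in a list with no call, the 2 lowest p-values. It also took the 10 genes that rose and the 10 that fell most at 10 CPM or more, the 10 KEGG terms in each direction with 3 leading members each, and a set of key genes whatever their result. Other members are named as examples of their list's counts. RefSeq assembly mOryCun1.1 supplied symbols for 530 of the 5734 genes that the table names by locus number. CPM are normalised counts scaled to library size. The results of a few genes are not reported here.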

Additional observations from a re-analysis of the deposited data

How the results depend on the processing

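Of 205 named genes 183 had changed by the rule of the report. With the same threshold, 179 of them stayed called under DESeq2, where the other 4 (CCRL2, ACOD1, PGLYRP1 and COL2A1) had no adjusted p in at least 1 fit. The number was 181 with upper-quartile scaling, 179 without a filter, 172 with 6 libraries, and 182 and 181 with limma on log2(FPKM + 0.1) and log2(FPKM + 1). No called gene changed direction under these settings. Genes higher with all libraries numbered 3074, or 1583 at an adjusted p under 0.01 and 1929 to 3263 with 1 library left out. Those lower numbered 2618, or 1035 at the stricter threshold and 1252 to 2788 with 1 library left out. Genes called in every fit numbered 1820 higher, or 421 at the stricter threshold, and 1167 lower, or 115 at the stricter threshold and 2254 by DESeq2. Upper-quartile scaling gave 1526 higher and 1461 lower. List members called numbered 125 higher, or 28 at the stricter threshold, and 84 lower, or 16 at the stricter threshold and 159 by DESeq2. Only 40 named genes stayed called at the stricter threshold. The cause of the DESeq2 differences was not tested. With the replicate block, 1141 genes were higher in every fit, as were 81 list members, and 119 named genes stayed called. Whether equal numbers mark paired samples is not stated, and correlations among 3 libraries a group cannot settle it. Same-numbered untreated and normal libraries correlated at 0.081, 0.0131 and 0.0507 in their deviations from the group mean. Untreated replicates 1 and 3 correlated best with the normal library of their own number. Untreated replicate 2 correlated best with normal replicate 3, at 0.0424, so not every sample was closest to its own number. Among genes not called, the sign of the log2 difference turned with 1 library left out for MYOD1 (range -0.01 to 1.1, negative without untreated replicate 1), PPARG (-0.32 to 0.14, positive without normal replicate 1), EGFR (-0.3 to 0.01, positive without normal replicate 3) and PGR (-0.91 to 0.29, positive without normal replicate 3, untreated replicate 2 or untreated replicate 3).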
